A study of Rattus norvegicus with 18 samples.

Results

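Whole-brain RNA of spontaneously hypertensive rats (SHR) was compared with that of Wistar-Kyoto rats (WKY) at 6 weeks of age, on the 3 arrays labelled SHR and the 3 labelled WKY at that age, 6 of the 18 arrays of the series. The arrays were chosen by their titles alone. The series also holds SHR and WKY at 3 weeks, and the stroke-prone strain SHRSP at both ages, with 3 arrays in each of its 6 groups. The labels call the 3 arrays of a group biological replicates, name no treatment or allele beyond the strain, and do not give the sex of the rats or whether animals were pooled. Each RNA was labelled with the dye Cy3 and hybridised alone to an Agilent rat gene expression array of 60-base probes.

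The SHR was bred from the WKY by selection for high blood pressure, and the WKY is its usual control strain. Pressure in the SHR rises as the rat grows, so that a young brain is often studied as a stage before, or at the start of, hypertension. Blood pressure is held by hormones such as angiotensin and the natriuretic peptides, by nitric oxide in the vessel wall, and by the sympathetic nerves, whose outflow the hypothalamus and brainstem set. Inbred strains also differ by descent, and a variant under an array probe lowers its signal as less RNA does, so a difference between such strains at a probe is a difference in signal.

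The strain labels did not keep the same order at both ages. Between the arrays labelled SHR and those labelled SHRSP, 52 genes differed at least 2-fold with a limma adjusted p under 0.05 at both ages, and for 47 of them the sign was opposite at 3 and at 6 weeks. Vegfb, a vascular endothelial growth factor, differed by 9.28 (log2) between SHR-labelled and SHRSP-labelled arrays at 6 weeks and by -9.58 at 3 weeks. Against WKY of the same age its signal was low under the SHR label at 3 weeks (-9.54) and under the SHRSP label at 6 weeks (-9.38), and not under the SHRSP label at 3 weeks (0.04) or the SHR label at 6 weeks (-0.10). No array of the 2 low groups was above background for it, so these differences have no exact size. Of the 47 genes, 31 were called and at least 2-fold apart between SHR-labelled and WKY-labelled arrays at 6 weeks. Of those 31, 29 differed 2-fold the same way on the arrays labelled SHRSP at 3 weeks and 0 on the arrays labelled SHR at 3 weeks. At which age the labels hold cannot be told apart, so comparisons with 3 weeks are given for both labels in most places.

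The slides that hold the arrays also went with the groups. The 3 arrays labelled WKY at 6 weeks shared slide 3 with 1 array of another group, and the 3 labelled SHR at 6 weeks had slide 4 to themselves, so slide and strain cannot be told apart at 6 weeks. By the file headers both groups were scanned on the same day. The arrays labelled SHRSP at 6 weeks were scanned on another day, and all 3-week arrays but array 3 of the SHRSP-labelled group on a further one. At 3 weeks the SHR-labelled arrays were split, with array 1 on slide 1 beside all 3 WKY arrays and arrays 2 and 3 on slide 2. Of the SHRSP-labelled arrays at 3 weeks, arrays 1 and 2 were on slide 2 and array 3 on slide 3. The comparisons with WKY at 3 weeks, and those between the ages, are therefore not free of slide either. Those between the ages, and that of the SHR with the SHRSP label at 6 weeks, are not free of scan day. The split of the SHR-labelled group gives a difference between slides within 1 group, quoted below as the slide difference: array 1 less the mean of arrays 2 and 3. It sets 1 array against 2, so slide and single array cannot be told apart in it. Neither of its slides held a 6-week array. Over the 18 arrays the median spot intensity was 354 to 436, the share of spots well above background was 81.8 to 87.5%, and no spot was saturated. Pairs of arrays correlated with r of at least 0.997 within both 6-week groups and of at most 0.989 between them, across genes, which are not independent replicates. The arrays carried brain RNA: all 14 general neuron, all 16 astrocyte and all 19 measured myelin markers (of 20 listed) were well above background on all 6 arrays. Only genes well above background on all 3 arrays of at least 1 group of the series were measured.

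The probes behind the main results are shown so that a reader can see what was measured. Each is written from its 5′ end, with coordinates on the rat build rn4 from the array files. Capitals mark the longest run of A and T in the stretch printed. The complete 60 bases are given for probes whose coordinates span more than 60 bases of the genome, and the first 30 bases for the others. The probe of Agtrap (chr5:165154364-165154423, minus strand), that of Ptgr1 (chr5:77010948-77011007, minus strand), that of Alb (chr14:19126980-19127039, minus strand), that of Nppa (chr5:165074636-165074695, plus strand) and that of Ephx2 (chr15:45535737-45538220, minus strand) gave lower signals on the SHR-labelled arrays. The probe of Adtrp (chr17:28879511-28879570, plus strand), that of Zfp597 (chr10:11926184-11926243, plus strand) and both probes of Acsm5 (chr1:177802518-177804621 and chr1:177808482-177808541, plus strand) gave higher ones.
Agtrap: agaagacaagaagcccaagatgTTTTctcg
Ptgr1: atcactgaaggATTTgagaagatgcccgca
Alb: actcatctcttctgttggtgTAAAAccaac
Nppa: gccttttggctcccaggccATATTggagca
Ephx2: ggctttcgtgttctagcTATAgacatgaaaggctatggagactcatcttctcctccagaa
Adtrp: tgtttgtctgacctccatgggagATTTTgt
Zfp597: gagAAAActcataagtgcaaaacatgtgca
Acsm5, first probe: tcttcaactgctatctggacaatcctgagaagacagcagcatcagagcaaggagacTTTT
Acsm5, second probe: gaccatactcttccATTTAgaaatcacact
Both Acsm5 probes, of which the first spans 2104 bases of the genome, were higher on the SHR-labelled arrays, by 2.94 and 3.75 (log2). The first was above background on 1 of 3 WKY-labelled arrays, so its difference has no exact size. The median GC content of the probes was 45% for the genes raised at least 2-fold, for those lowered at least 2-fold and for all genes tested.

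Levels are given as log2 of the processed intensity less the 75th percentile of the array, so a level of 0 is that percentile; levels of different probes are not comparable with each other. A gene was called where the limma adjusted p (Benjamini-Hochberg over all 21181 genes tested) was under 0.05. Between the strains at 6 weeks 8764 genes were called (41.4%), 5294 higher (25.0%) and 3470 lower (16.4%) on the SHR-labelled arrays, and the median difference over all genes was 0.02. The share of higher genes among those called depended on how the arrays were scaled: it was 60.4% as given, 49.6% with quantile normalization, 40.3% with arrays scaled to the median, 62.6% after normexp background correction and 66.8% with the slide as a random block. Among those called, 793 genes (3.74% of all tested) differed 2-fold or more, 695 that rose (3.28%) and 98 that fell (0.463%). These 2 counts also depended on processing. They were 572 and 153 with quantile normalization, 598 and 114 with median scaling, and 309 and 37 after normexp background correction. The 3 values of each group did not overlap for 691 of these 695 and 97 of these 98, as for 56.2% of all genes. In whole tissue, fewer cells of a type and less RNA per cell cannot be told apart.

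**Figure D1:**
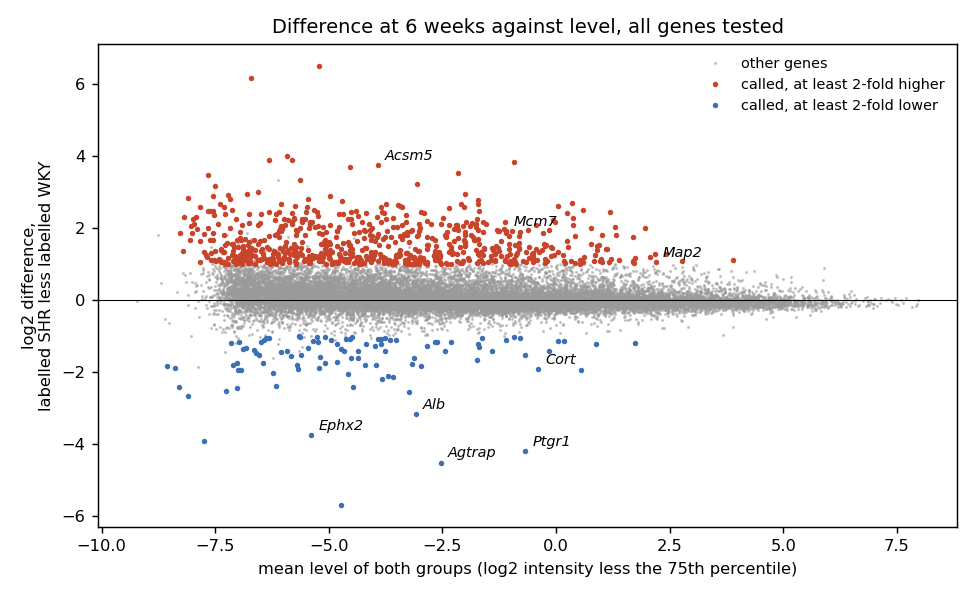
Difference at 6 weeks (y axis, log2, SHR-labelled less WKY-labelled arrays) against the mean level of both groups (x axis, log2 intensity less the 75th percentile of the array) for the 21181 genes tested. Each point is a gene; the 695 genes called and at least 2-fold higher are red, the 98 called and at least 2-fold lower are blue, and Agtrap at -4.52 and Acsm5 at 3.75 lie far from the band of other genes.

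The largest falls among genes measured above background on all 6 arrays were in Agtrap and Ptgr1. Agtrap encodes the protein that binds the type 1 angiotensin receptor and promotes its internalisation. Its level was -0.28, -0.21 and -0.34 on the WKY-labelled arrays and -4.86, -4.79 and -4.73 on the SHR-labelled arrays. The groups lay far apart with little spread inside either, a 22.9-fold difference (log2 difference -4.52 ± 0.05 (SE), n = 3 per group, limma adjusted p = 6.3e-16). Ptgr1, a reductase that inactivates prostaglandins and leukotriene B4, was at 1.37, 1.42 and 1.48 on the WKY-labelled and at -2.80, -2.79 and -2.74 on the SHR-labelled arrays. That is an 18.4-fold fall (-4.20 ± 0.06, limma adjusted p = 1.49e-15). The named largest changes were taken only from genes whose groups did not overlap, so their lack of overlap is no separate result. At 3 weeks Agtrap differed from WKY by 0.17 under the SHR label and -3.89 under the SHRSP label, whereas Ptgr1 was lower by a similar amount under both (-3.90 and -3.87).

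Albumin (Alb), the main plasma protein, whose messenger is chiefly made in liver, stood at -1.48, -1.54 and -1.48 in the WKY-labelled brains and at -4.48, -4.78 and -4.75 in the SHR-labelled ones. The 8.97-fold fall (-3.17 ± 0.12, limma adjusted p = 3.43e-10) was also seen at 3 weeks (-3.66 under the SHR and -3.30 under the SHRSP label). Albfm1, of the same region of chromosome 14 (chr14:18992807-18992866), fell with it by 2.55 ± 0.32 on the log2 scale, and both of its probes were lower. Ptprj, a receptor tyrosine phosphatase, was at 1.55, 1.56 and 1.48 in WKY and at -0.37, -0.44 and -0.41 in SHR. This fall (-1.93 ± 0.05, limma adjusted p = 2.29e-12) left a wide gap between the groups, and this probe was also lower at 3 weeks (-1.50 and -1.33). The other Ptprj probe differed by 0.15 (limma adjusted p = 0.234), so the probes of this gene disagreed. Ncaph, a subunit of the condensin complex that packs chromosomes, fell by 2.14 ± 0.07 on the log2 scale. Of the 15 named genes with the largest falls, 15 were called lower than WKY under the SHRSP label at 3 weeks, where 23.0% of all genes were. Under the SHR label at 3 weeks 11 were, where 17.0% of all genes were. Besides Ptgr1, Alb, Albfm1, Ptprj and Ncaph, those 11 were Clca1, Cort, Acot5 (a peroxisomal acyl-CoA thioesterase), Nudt17, Tatdn3 and Cfap206 (a protein of motile cilia), whose differences at 6 weeks ran from -1.92 to -1.61.

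**Figure D2:**
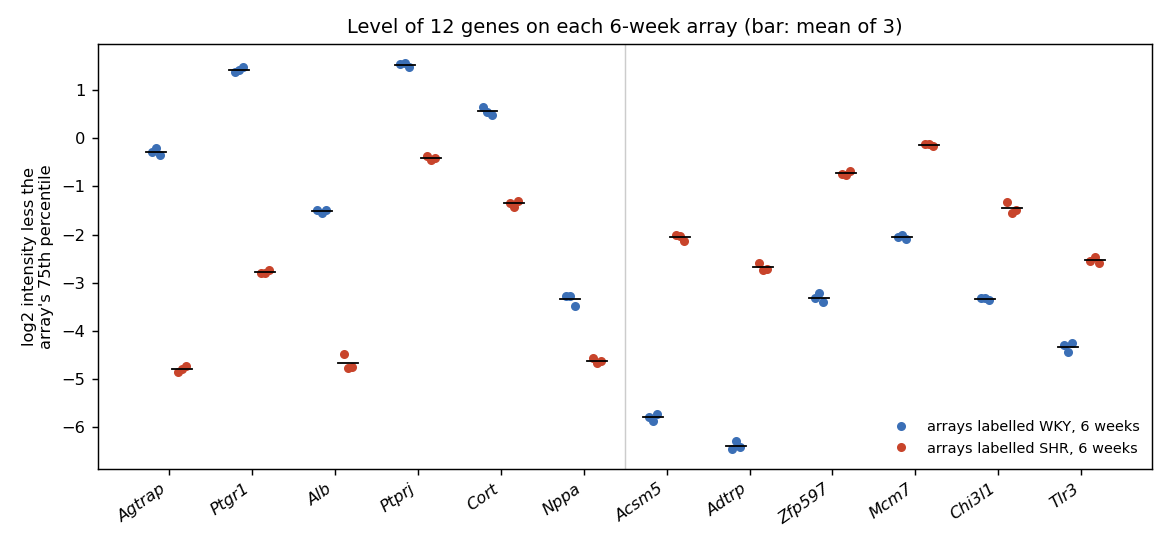
Level of 12 genes (y axis, log2 intensity less the 75th percentile of the array) on the 3 arrays labelled WKY and the 3 labelled SHR at 6 weeks. Each dot is an array and each bar a group mean. Agtrap, Ptgr1, Alb, Ptprj, Cort and Nppa were lower and Acsm5, Adtrp, Zfp597, Mcm7, Chi3l1 and Tlr3 higher on the SHR-labelled arrays. The groups overlapped in none of the 12, some of which were chosen by a rule that required this.

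Other lowered genes followed the crossing of the strain labels, with little or no difference from WKY under the SHR label at 3 weeks and a large one under the SHRSP label. Cort encodes cortistatin, a peptide of cortical interneurons related to somatostatin; it stood at 0.65, 0.54 and 0.49 on the WKY-labelled and at -1.35, -1.42 and -1.29 on the SHR-labelled arrays. The fall was 1.91 ± 0.05 on the log2 scale (limma adjusted p = 6.32e-12), against -0.40 under the SHR label and -1.42 under the SHRSP label at 3 weeks. Ephx2, which hydrolyses epoxyeicosatrienoic acids, lipids that relax vessels, was at -3.61, -3.39 and -3.51 in WKY and at -7.66, -6.91 and -7.21 in SHR, where 2 of 3 arrays were above background. Its difference was -3.76 ± 0.19 (limma adjusted p = 4.24e-09), against 0.28 under the SHR and -3.65 under the SHRSP label at 3 weeks. Haghl, a relative of the glyoxalase hydrolase, behaved alike (-1.83 ± 0.07 at 6 weeks, 0.11 and -1.72 at 3 weeks), as did the skin galectin gene Lgals7 (-1.60 ± 0.10, with -0.17 and -1.50). Hba-a3, an alpha-globin gene, fell by 5.69 ± 0.30 on the log2 scale with 1 of 3 SHR-labelled arrays above background, and was at 0.59 and -7.24 at 3 weeks, the latter with no array above background; the near-identical Hba-a1 differed by 0.06 and was not called, though its other probe was (0.40), and shared signal between such copies cannot be separated here. The 27 placed genes among the 31 of this pattern, raised or lowered, lay on 10 chromosomes, with Ephx2 on chromosome 15. Some shared a stretch of a chromosome, which was noticed after their values were seen, and whether they lie closer together than other genes was not tested. Nppa, Agtrap and Cort spanned chr5:165074636-166199120, Zfp597, Haghl, Rgs11 and Hba-a3 lay between 11926184 and 15559520 on chromosome 10, and Trappc6a, the adhesion gene Ceacam16 (-1.41) and Lgals7 between 78869049 and 83970015 on chromosome 1.

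Among genes above background on all 6 arrays, those that rose most and were also higher at 3 weeks under both labels were led by Acsm5, a mitochondrial enzyme that activates medium-chain fatty acids. Acsm5 was at -5.78, -5.87 and -5.73 on the WKY-labelled arrays and at -2.0, -2.02 and -2.12 on the SHR-labelled arrays. The rise was 13.4-fold (3.75 ± 0.06, limma adjusted p = 2.1e-14), with 3.18 and 3.06 at 3 weeks. Adtrp, which raises the activity of tissue factor pathway inhibitor on endothelium, stood at -6.46, -6.28 and -6.41 in WKY and at -2.59, -2.73 and -2.71 in SHR, a rise of 3.70 ± 0.06 (limma adjusted p = 2.08e-14). Mcm7, a subunit of the replicative helicase, was at -2.05, -2.0 and -2.10 against -0.12, -0.12 and -0.15, which is 1.92 ± 0.06 higher (limma adjusted p = 2.03e-11). Chi3l1, a secreted chitinase-like protein of glia and macrophages, was at -3.32, -3.32 and -3.36 against -1.32, -1.54 and -1.49, and every SHR-labelled array lay well above every WKY-labelled one. Other rises were seen in the endocytic receptor gene Ly75 (2.27 ± 0.10, with 2 of 3 WKY-labelled arrays above background), the matrix protein gene Ltbp2 (1.89 ± 0.11), the double-stranded RNA sensor Tlr3 (1.79 ± 0.06), and Map2, a microtubule protein of dendrites (1.06 ± 0.07), which was at 0.79 and 0.83 at 3 weeks. Such genes were a minority. Of the 695 raised genes, 76 were called higher and 438 lower under the SHR label at 3 weeks, where 11.9% of all genes were called higher and 17.0% lower. Under the SHRSP label 100 were called higher and 499 lower, where 17.9% and 23.0% of all genes were, and 71 were called higher under both.

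Some raised genes followed the crossing of the labels instead. Zfp597, a zinc finger gene, was at -3.32, -3.21 and -3.40 on the WKY-labelled arrays and at -0.74, -0.76 and -0.69 on the SHR-labelled ones, 2.58 ± 0.07 higher (limma adjusted p = 6.32e-12). At 3 weeks it differed by 0.09 under the SHR and 2.87 under the SHRSP label. Zfp296 (2.34 ± 0.08), Rgs11, which speeds the shut-off of G protein signals (2.25 ± 0.15), the T cell kinase gene Zap70 (1.54 ± 0.06) and the vesicle tethering gene Trappc6a (1.15 ± 0.04) had the same pattern, each differing from WKY by at most 0.14 under the SHR label at 3 weeks. Hes1, a transcription factor of the Notch pathway that is named here after its values were seen, was 1.76 higher and stood at -0.14 and 1.02 at 3 weeks. The gene of the antimicrobial peptide Defb17, likewise chosen after its values were seen, was 6.51 higher (log2) with 1 of 3 WKY-labelled arrays above background, against 0.20 and 6.81 at 3 weeks, where no WKY array was.

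Many raised genes differed within the SHR-labelled 3-week group between the array on slide 1 and those on slide 2. For 350 of the 695 (50.4%), array 1 of the SHR-labelled 3-week group (slide 1) was at least 2-fold above arrays 2 and 3 (slide 2). This held for 430 of all 21181 genes (2.03%), and for 0 of the 98 lowered genes. Array 1 was at least 2-fold below arrays 2 and 3 for 3 of the lowered and 3 of the raised genes. Of those 350, 310 were called lower than WKY under the SHR label at 3 weeks, where 17.0% of all genes were called lower, and 339 under the SHRSP label, where 23.0% were. These genes were chosen for low values on arrays 2 and 3 beside array 1. Arrays 2 and 3 also enter the call under the SHR label, so that count is no separate result. Of the 15 named genes with the largest rises, 7 were of this kind, among them Slc45a4 (2.75 ± 0.47), Or8b8 (2.68 ± 0.44), Agtr1b, Tnfsf8, Rpl23a-ps6 and Stfa2l1. Slc45a4, a membrane transporter gene, showed it plainly: it was at -6.08, -5.92 and -6.29 in WKY and -3.18, -3.42 and -3.44 in SHR at 6 weeks, while the 3-week SHR-labelled arrays read -3.60 on slide 1 and -6.18 and -6.02 on slide 2. Another, Or12j3, an olfactory receptor gene, rested on 1 array, with -5.91, -2.34 and -6.33 in SHR against -7.46, -6.68 and -7.21 in WKY. Within 2-fold between these arrays were 342 raised genes, of which 175 have an established symbol. More of the 342 went against than with the 6-week direction at 3 weeks: 73 were called higher and 128 lower under the SHR label, and 95 higher and 160 lower under the SHRSP label. Over the 695 raised genes, arrays 1 and 2 of the SHRSP-labelled 3-week group, on slide 2, had medians of -4.64 and -4.65. Array 3 of that group, on slide 3, had -4.61. The part of the slide in these differences was not tested.

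**Figure D3:**
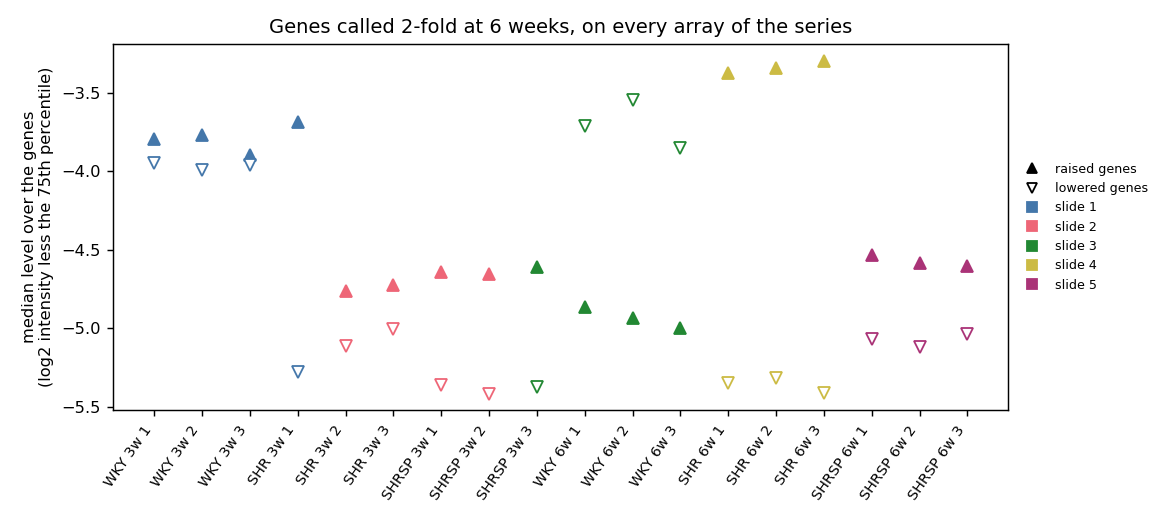
Median level (y axis, log2 intensity less the 75th percentile of the array) of the 695 genes raised at least 2-fold (filled triangles) and of the 98 lowered at least 2-fold (open triangles) on each of the 18 arrays (x axis), coloured by slide. The raised genes, chosen on the 6-week arrays, had a median of -3.68 on array 1 of the SHR-labelled 3-week group, beside -3.90 to -3.77 on the 3 WKY arrays of the same slide, and of -4.76 and -4.72 on arrays 2 and 3 of that group.

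Among the 98 lowered genes, chosen by the 6-week arrays, 67 were called lower under the SHR label at 3 weeks, where 17.0% of all genes were, and 85 under the SHRSP label, where 23.0% were. The 67 were called lower under both labels. The opposite call was made for 1 and for 0 of the 98. Across these 98 genes the differences at 6 and at 3 weeks correlated with r = 0.15 for the SHR label and r = 0.75 for the SHRSP label, as a description over genes that share arrays within each comparison. With the slide as a random block 86 of the 98 and 623 of the 695 were called, where 8.40% of all genes were called lower and 16.9% higher. These genes had been chosen as called on the same arrays. The SHR-labelled 6-week arrays had slide 4 to themselves, so the block cannot separate slide from strain.

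**Figure D4:**
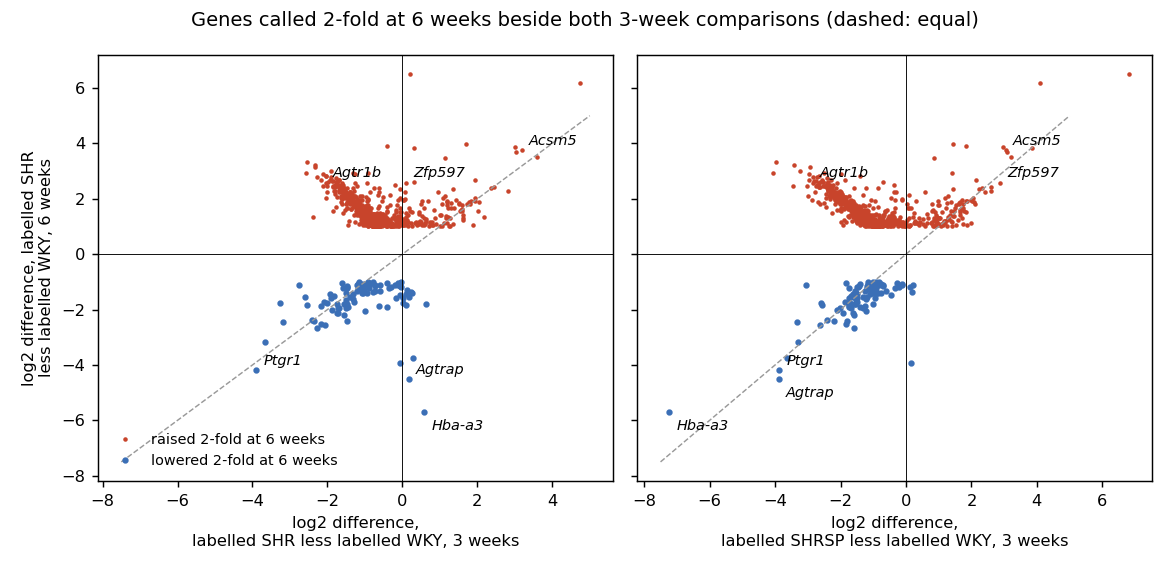
Difference at 6 weeks (y axis, log2, SHR-labelled less WKY-labelled) of the genes called and at least 2-fold apart, against the difference from WKY at 3 weeks (x axis, log2) under the SHR label (left) and the SHRSP label (right); the dashed line marks equal differences. Each point is a gene, red if raised and blue if lowered; Ptgr1 and Acsm5 lie near the line in both panels, Agtrap, Hba-a3 and Zfp597 only in the right one, and Agtr1b, among many raised genes, opposite to it in both.

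A few genes were measured above background in 1 strain only, and for these a lower bound of the fold is given, from the dimmest signal counted as above background on each array of the other strain. Oxnad1, an oxidoreductase gene, read -10.10, -9.77 and -9.55 on the WKY-labelled arrays, none well above background, and -3.68, -3.65 and -3.58 on the SHR-labelled arrays, at least 15.9-fold higher (limma adjusted p = 4.24e-08). It was also higher at 3 weeks under both labels (4.74 and 4.08), with no WKY array above background there either. Ptger4, a receptor of prostaglandin E2, was above background on 2 of 3 WKY-labelled and no SHR-labelled array, at least 1.73-fold lower. The sialyltransferase gene St6galnac2 was at least 2.96-fold and the secreted lectin gene Reg3b at least 2.77-fold lower, both with similar differences at 3 weeks (-1.69 and -1.67 for St6galnac2, -1.72 and -2.01 for Reg3b). The bounds for Abca9 (8.99) and Plet1 (2.49) rested on 1 bright SHR-labelled array each, at -1.26 and -4.48.

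The counts of gene lists that follow are read against the shares of all genes called at 6 weeks, 25.0% higher and 16.4% lower. In the renin-angiotensin-aldosterone system, 5 of 23 measured members rose (21.7%) and 3 fell (13%), with a median difference of 0.11 beside 0.02 for all genes. Both shares are below those of all genes, so the values that follow describe single members. Angiotensinogen is cut in steps, the last by angiotensin-converting enzyme, to angiotensin II, which acts on type 1 receptors and, in the adrenal, drives aldosterone. The substrate Agt differed by 0.11 and was not called. The converting enzyme Ace was at -1.23, -1.27 and -1.31 in WKY and at -1.84, -1.56 and -1.45 in SHR. It fell by 0.35 ± 0.08 on the log2 scale (limma adjusted p = 0.00402), with the groups apart and 1 SHR-labelled array lower than the others; the other Ace probe differed by 0.12 (limma adjusted p = 0.69). The neurolysin gene Nln, whose product cleaves angiotensin I among other peptides, fell by 0.27.

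Of the receptors, Agtr1b, the minor type 1 receptor gene of the rat, was at -4.23, -4.52 and -5.28 in WKY and at -2.08, -2.08 and -2.13 in SHR. The rise was 2.58 ± 0.43 (limma adjusted p = 0.00041), but the gene also differed within the SHR-labelled 3-week group. These arrays read -3.31 on slide 1 and -4.56 and -5.10 on slide 2, a slide difference of 1.52. The main type 1 receptor gene Agtr1a differed by -0.12 and was not called, and Mas1, the receptor of angiotensin 1-7, rose by 0.18 (not called with the slide as a random block). Downstream, Sgk1, a kinase induced by mineralocorticoids and glucocorticoids that acts on sodium channels, was at -1.22, -1.17 and -0.70 in WKY and at 0.80, 0.25 and 0.50 in SHR, 1.55 ± 0.18 higher (limma adjusted p = 2.18e-05). It was higher at 3 weeks under both labels as well (2.01 and 1.46), and its slide difference was -0.20. The mineralocorticoid receptor gene Nr3c2 differed by 0.02 and was not called, while its other probe fell (-0.33), and Hsd11b1, which regenerates corticosterone, rose by 0.17 and was not called with the slide as a random block.

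Among natriuretic peptides, endothelins, kinins and adrenomedullin, 3 of 23 members rose (13%) and 4 fell (17.4%), with a median of 0.02, beside 25.0% and 16.4% of all genes. Nppa encodes atrial natriuretic peptide, which lowers pressure by sodium loss and vessel relaxation. It was at -3.28, -3.27 and -3.48 in WKY and at -4.57, -4.67 and -4.62 in SHR, so every SHR-labelled array was lower, by 1.28 ± 0.08 (limma adjusted p = 5.18e-08). At 3 weeks it differed by 0.11 under the SHR and -1.06 under the SHRSP label. Nppc, of C-type natriuretic peptide, and its receptor gene Npr2 fell by 0.33 and 0.15, whereas the receptor gene Npr1 (0.11) was not called. With the slide as a random block Npr2 was not called. Adm, the vasodilator adrenomedullin, was at -2.10, -1.99 and -1.83 in WKY and at -1.28, -1.38 and -1.47 in SHR, and rose by 0.60 ± 0.07 (limma adjusted p = 2e-05). Its receptor gene Calcrl (0.45) and endothelin 3 (Edn3, 0.31) rose, and the receptor partner Ramp1 fell (-0.38).

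In the nitric oxide and cyclic GMP pathway 5 of 25 members rose (20%) and 3 fell (12%), both below the shares of all genes (median -0.02). Nos2, the inducible synthase, was at -5.05, -5.25 and -5.20 against -4.25, -4.34 and -4.35, up by 0.85 ± 0.11 (limma adjusted p = 5.48e-05), with a slide difference of 0.40; the neuronal Nos1 and endothelial Nos3 (both -0.17) were not called, though the other Nos1 probe was (-0.30). Caveolin 1 (Cav1, 0.42) and the cyclic GMP phosphodiesterase Pde5a (0.43) rose. The cyclic GMP-dependent kinase gene Prkg2 was at -4.55, -4.48 and -4.73 against -5.10, -5.00 and -5.04, lower by 0.46 ± 0.06 (limma adjusted p = 5.25e-05) and lower at 3 weeks too (-0.71 and -0.67). Of the genes that make, store, clear and sense catecholamines, 8 of 24 rose (33.3%) and 6 fell (25%; median 0.13). The vesicular transporter Slc18a1 was at -3.84, -4.12 and -3.60 in WKY and at -2.71, -2.86 and -3.12 in SHR, 0.95 ± 0.11 higher (limma adjusted p = 3.28e-05), and also higher at 3 weeks (0.65 and 0.81). Th, which makes the first step of dopamine and noradrenaline synthesis, was at 1.06, 1.02 and 0.95 against 1.45, 1.52 and 1.49, a rise of 0.48 ± 0.09 beside a slide difference of 0.47. The adrenergic receptor genes went both ways: Adra2b (0.54, slide difference 0.48) rose, while Adra1a (-0.36), Adra2c (-0.29) and Adrb3 (-0.48) fell. With the slide as a random block Adra2c and Adrb3 were not called. The degrading monoamine oxidases Maoa (-0.22) and Maob (-0.24, not called with the slide as a random block) fell. Dbh, which makes noradrenaline, differed by 0.11 and was not called. Of 31 candidate genes of hypertension from rat crosses, 13 rose (41.9%) and 7 fell (22.6%, median 0.11). At 3 weeks 6 rose and 10 fell under the SHR label, and 6 rose and 15 fell under the SHRSP label. Of those that rose at 6 weeks, Inpp5a (1.03), Kcnq1 (0.74) and Spon1 (0.46) each had another probe that was not called (-0.02, -0.0013 and 0.07). Beyond the genes above, the mitochondrial nuclease Endog was at 0.11, 0.16 and 0.19 in WKY and -0.75, -0.76 and -0.61 in SHR (-0.86 ± 0.04, limma adjusted p = 3.77e-09). The fatty acid transporter Cd36 rose by 0.60 ± 0.12, and its other probe rose too (0.78).

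Eicosanoids are lipid signals made from arachidonic acid by cyclooxygenases, lipoxygenases and cytochrome P450 enzymes. Of 37 measured genes of their synthesis, breakdown and receptors, 9 rose (24.3%) and 6 fell (16.2%), close to the 25.0% and 16.4% of all genes (median 0.13, and -0.02 with quantile normalization). The members are therefore given one by one, and no pattern among their roles was tested. Members that fell included Ptgr1 and Ephx2 as above, and Hpgd, which oxidises prostaglandins, at -2.83, -2.83 and -2.90 against -3.62, -3.70 and -3.60 (-0.78 ± 0.06, limma adjusted p = 2.5e-07). Ptgr2, of the same step as Ptgr1, fell by 0.19. Cyp2c11, an arachidonic acid epoxygenase of rat, fell by 1.13 ± 0.13 and was lower at 3 weeks by -2.77 and -3.07. Members that rose included the cyclooxygenase Ptgs1 (0.80), the lipoxygenase Alox5 (0.82) and its partner Alox5ap (0.77), Ptges (0.60) and Ltc4s (0.42), with slide differences between -0.26 and 0.14. The other Ptgs1 probe was not called (limma adjusted p = 0.0598) and had no WKY-labelled array above background. Not all members that rose are listed here. Cyclooxygenase 2 (Ptgs2, -0.06) was not called.

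Genes of fatty acid oxidation and acyl-CoA synthesis moved in both directions, 9 of 38 higher (23.7%) and 8 lower (21.1%), beside 25.0% and 16.4% of all genes (median -0.01). Besides Acsm5, Acox2, an acyl-CoA oxidase for branched chains and bile acid intermediates in peroxisomes, was at -7.34, -6.95 and -7.67 in WKY and at -4.97, -4.89 and -4.80 in SHR, 2.44 ± 0.22 higher (limma adjusted p = 2.2e-06). Crot, which carries shortened fatty acids out of peroxisomes, was at 0.20, 0.25 and 0.29 against -0.45, -0.55 and -0.55, lower by 0.77 ± 0.06 (limma adjusted p = 4.58e-07). The peroxisomal thiolase Acaa1a was 0.78 ± 0.04 lower. Acox2, Crot and Acaa1a each differed the same way at 3 weeks under both labels (2.44 and 2.58, -1.01 and -0.97, -0.43 and -0.39). For Acox2 no WKY array was above background at 3 weeks and 2 of 3 were at 6 weeks.

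Of 25 cholesterol synthesis genes 13 fell (52%, beside 16.4% of all genes) and 1 rose, with a median of -0.18 beside 0.02 for all genes. The members that fell run along the whole pathway, among them Hmgcs1 (-0.29), an early step, Mvk (-0.19), Pmvk (-0.31) and Mvd (-0.22) of the mevalonate steps, Sqle (-0.22), and Hsd17b7 (-0.50) and Dhcr7 (-0.26) of the late steps. Hsd17b7 was at -0.90, -0.91 and -1.01 in WKY and at -1.41, -1.41 and -1.50 in SHR, with no overlap. Squalene synthase (Fdft1) rose by 0.53 ± 0.09, with a slide difference of 0.32. With the slide as a random block 8 members fell and 1 rose, where 8.40% of all genes were called lower and 16.9% higher. At 3 weeks 6 rose and 3 fell under the SHR label, and 1 rose and 6 fell under the SHRSP label, where 17.0% and 23.0% of all genes fell.

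Myelin genes, expressed by oligodendrocytes, fell in 12 of 19 (63.2%, beside 16.4% of all genes) and rose in 1 (median -0.25). Cnp, an enzyme of non-compact myelin, was at 1.12, 1.33 and 1.32 in WKY and at 0.57, 0.53 and 0.54 in SHR, lower by 0.71 ± 0.07 (limma adjusted p = 2.51e-06). Ermn, a cytoskeletal protein of mature oligodendrocytes, was at 2.61, 2.64 and 2.56 against 2.03, 2.16 and 2.0 (-0.54 ± 0.05, limma adjusted p = 2.47e-06). Both groups were tight and apart for each gene. The galactolipid enzyme Ugt8 (-0.53), the myelin proteins Mog (-0.46) and Mag (-0.38) and the gap junction gene Gjb1 (-0.22) also fell, the tight junction gene Cldn11 rose (0.28), and Mbp (-0.05) and Mobp (0.11) were not called. Probes of a gene disagreed in this list: 2 other Mobp probes fell (-2.10 and -1.37, limma adjusted p = 9.4e-11 and 2.85e-08), and the other Mag probe was not called (-0.19). The median slide difference of the list was 0.02. With the slide as a random block 9 members fell, where 8.40% of all genes did. At 3 weeks 10 rose and 2 fell under the SHR label (median 0.16), and 3 rose and 7 fell under the SHRSP label (median 0.01). The test of the difference between the ages called 13 members lower and 0 higher under the SHR label, where 16.1% of all genes were called lower. Against the arrays labelled SHRSP at 3 weeks it called 9 lower and 0 higher, where 18.6% of all genes were called lower. Among precursors of these cells 5 of 12 genes fell and 2 rose, led by Enpp6 (-0.71 ± 0.05), a marker of newly forming oligodendrocytes.

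**Figure D5:**
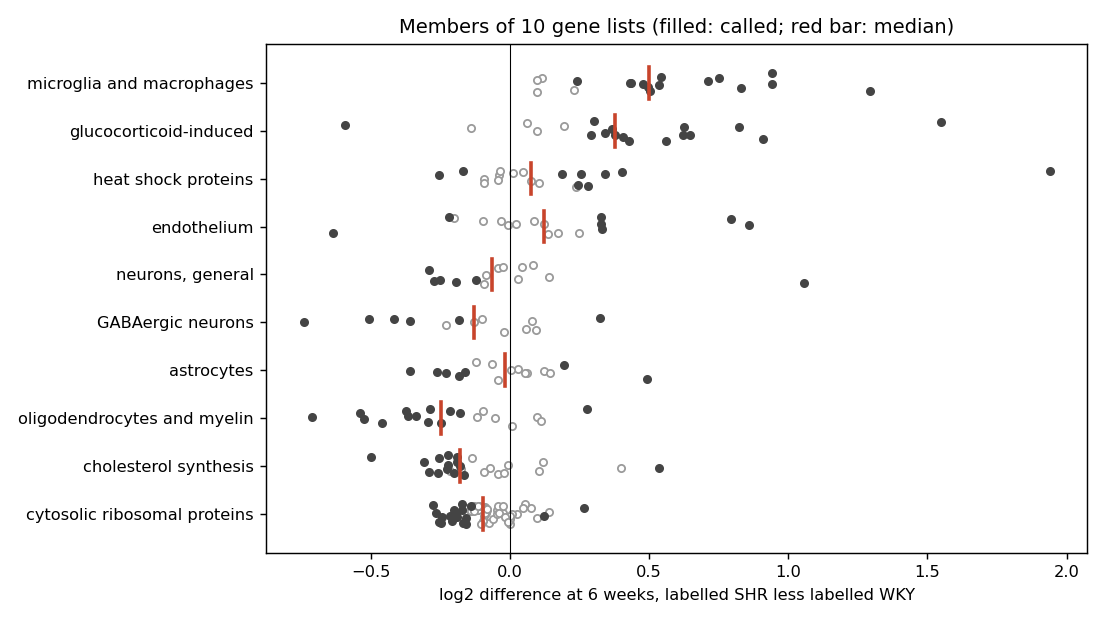
Difference at 6 weeks (x axis, log2, SHR-labelled less WKY-labelled) of the members of 10 gene lists (rows). Each dot is a gene, filled where it was called, and the red bar is the median of the list; the microglial list (median 0.50) and the list of glucocorticoid-induced genes (0.38) lie to the right of 0, and the myelin (-0.25) and cholesterol synthesis (-0.18) lists to the left.

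Markers of microglia and macrophages, the resident immune cells of brain and its borders, rose in 14 of 18 (77.8%, beside 25.0% of all genes) and fell in 0 (median 0.50). C1qa, of the first complement component, was at 0.53, 0.46 and 1.01 in WKY and at 1.62, 1.35 and 1.51 in SHR, 0.83 ± 0.12 higher (limma adjusted p = 0.000174). Tmem119, a marker of resident microglia, was at -3.73, -3.78 and -3.12 against -2.56, -2.84 and -2.42 (0.94 ± 0.14, limma adjusted p = 0.000217). In both genes the groups were apart and the third WKY-labelled array was the highest of its group. Cd163 (1.29) and Mrc1, markers of macrophages at vessels and meninges, and Csf1r (0.48), Trem2 (0.50) and Itgam (0.54) also rose; Mrc1, above background on no WKY-labelled and 2 SHR-labelled arrays, was at least 1.57-fold higher. Aif1 (0.10), Tyrobp (0.10), Cx3cr1 (0.23) and Ptprc (0.11) were not called. The median slide difference of the list was -0.12, and with the slide as a random block 13 members rose, where 16.9% of all genes did. At 3 weeks 8 rose and 1 fell under the SHR label, and 10 rose and 0 fell under the SHRSP label, where 11.9% and 17.9% of all genes rose. The complement and coagulation list, which shares C1qa, C1qb and C1qc with the microglial one, rose in 13 of 31 (41.9%) and fell in 4 (median 0.16), with C3ar1 (1.35) and C3 (0.86). The probes of the coagulation inhibitor Tfpi went opposite ways (0.89 and -0.34, limma adjusted p = 0.0096 for the second). Of 21 antigen presentation genes 11 rose (52.4%) and 3 fell (median 0.19), including RT1-A2 (0.64 ± 0.09, slide difference 0.43), RT1-DMb (0.51) and Cd74 (0.53); these genes vary in sequence between strains. Of 25 interferon-induced genes 3 rose and 1 fell (median -0.03).

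Genes induced by glucocorticoids, the adrenal stress hormones, rose in 14 of 19 (73.7%, beside 25.0% of all genes) and fell in 1 (median 0.38). Besides Sgk1, Fkbp5, a co-chaperone of the glucocorticoid receptor, was at -0.06, -0.16 and -0.23 in WKY and at 0.46, 0.39 and 0.64 in SHR, 0.65 ± 0.12 higher (limma adjusted p = 0.000635). Angptl4 was at -1.0, -0.58 and -0.14 against 0.30, 0.17 and 0.28 (0.82 ± 0.16, limma adjusted p = 0.000915), with a wide spread in WKY and none of it reaching the SHR-labelled arrays. Pdk4 (0.91), Zbtb16 (0.62), Mt1 (0.43) and Per1 (0.62) also rose, the last with a slide difference of 0.52. Lcn2 fell (-0.59), and Tsc22d3 (-0.14) and Klf9 (0.10) were not called. The median slide difference was -0.13, and with the slide as a random block 12 members rose, where 16.9% of all genes did. At 3 weeks 10 rose and 2 fell under the SHR label and 15 rose and 3 fell under the SHRSP label, where 11.9% and 17.9% of all genes rose.

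Neuronal lists changed less evenly, and their counts stand beside 25.0% of all genes called higher and 16.4% lower. Of 13 genes of GABAergic neurons 5 fell and 1 rose (median -0.13): somatostatin (Sst) was at 4.26, 4.30 and 4.24 in WKY and at 3.42, 3.56 and 3.59 in SHR (-0.74 ± 0.07, limma adjusted p = 3.21e-06), and Gad2, of the GABA synthesising enzyme, at 0.23, 0.31 and 0.08 against -0.32, -0.25 and -0.33 (-0.51 ± 0.06, limma adjusted p = 2.03e-05). Sst was lower at 3 weeks as well (-0.74 and -0.89). The parvalbumin gene Pvalb (0.08), Vip (0.09) and Npy (-0.13) were not called. Of 14 general neuron markers 5 fell and 1, Map2, rose; of 12 glutamatergic markers 2 fell and 1 rose; and of 16 astrocyte markers 5 fell and 2 rose, with medians of -0.06, 0.00 and -0.02. Of 32 neuropeptide genes 7 rose and 7 fell; Cartpt (-0.58 ± 0.08) and corticotropin-releasing hormone (Crh, -0.48) fell beside Cort and Sst, and oxytocin (Oxt, 0.41) rose, whereas vasopressin (Avp, 0.12) was not called. Potassium channel genes rose in 9 and fell in 10 of 39, led by Kcnj9 (-0.90) and Kcnip3 (-0.66). With these probes both were lower at 3 weeks under both labels. The other Kcnj9 probe fell by less (-0.13), and at 3 weeks it differed by -0.04 under the SHR and 0.005 under the SHRSP label.

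Markers of tissues that can come with a brain were read on the same arrays, where 25.0% of all genes were called higher and 16.4% lower. Pituitary markers were called higher in 4 of 11, namely Pou1f1 (1.40, slide difference 0.70), Tbx19 (0.80 ± 0.07), Pitx1 (0.65, slide difference 0.44) and Crhr1 (0.34), while growth hormone (Gh1) differed by 3.32 with wide spread and was not called; the median of each array over the list ran from -3.79 to -3.71 in WKY and from -3.08 to -2.37 in SHR. Crhr1 was not called with the slide as a random block. Pineal and photoreceptor markers rose in 3 of 11 (27.3%, near the share of all genes), among them Aanat (1.13), which was not called with that block either. Gnat1 (1.01) was another, and its other probe was not called (0.11, limma adjusted p = 0.131). Meningeal and fibroblast genes rose in 5 of 17 (29.4%), led by Lum (0.97 ± 0.15), and choroid plexus genes rose in 1 and fell in 2 of 16, with Ttr at 0.09. The endothelial genes Pecam1 (0.79 ± 0.07) and Abcb1a (0.86 ± 0.11, slide difference 0.44) rose and Egfl7 (-0.63) fell, 5 higher and 2 lower of 17. The part of such tissue in the other differences was not tested.

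For 2818 genes more than 1 probe was kept, and fitting each probe on its own called all probes of a gene higher in 167, all lower in 186 and probes in both directions in 141. Of 101 genes with a 2-fold probe, all probes were 2-fold and of 1 sign in 12, among them Acsm5, Tlr3, Ltbp2 and Albfm1. For Acsm5 and Ltbp2, 1 probe each was above background on only 1 of 3 WKY-labelled arrays. Among the largest disagreements was that of Zbtb20, a transcription factor gene, whose probe pair is shown because the probes differ in content of A and T; capitals again mark the longest run of A and T. The first Zbtb20 probe (chr11:58666337-58666396, minus strand, 45% GC) differed by -0.40 and the second (chr11:58663698-58663757, minus strand, 21.7% GC) was above background on 0 of 3 WKY-labelled and all 3 SHR-labelled arrays, at least 3.68-fold higher. At 3 weeks the second went the other way, by -2.54 under the SHR and -3.16 under the SHRSP label, and the first differed by -0.02 and 0.06. The part of base content or slide in this was not tested.
Zbtb20, first probe: cttctccttgaaggATTAccttatcaagca
Zbtb20, second probe: TTTTTTAgaaagaagaaaggggtatttctt
Of all genes, 16.2% were measured by a probe of at most 35% GC, against 17.7% of the raised and 13.3% of the lowered 2-fold genes. By chromosome, the share of genes called ran from 37.1% on chromosome 18 to 45.8% on chromosome 13.

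The difference between SHR-labelled and WKY-labelled arrays was of another size at 6 than at 3 weeks for 8416 genes under the SHR label (39.7%), and for 9064 (42.8%) when the 3-week arrays labelled SHRSP were used. Across all genes, the differences at the 2 ages correlated with r = -0.23 for the SHR label and -0.26 for the SHRSP label, as a description. Against the arrays labelled SHRSP at 6 weeks, which had slide 5 and a scan day to themselves, 9061 genes (42.8%) were called, while 914 (4.32%) were called between the same labels at 3 weeks. The comparisons of SHR and SHRSP with WKY at 6 weeks share the WKY arrays, so their values are given side by side: Ptgr1 was at -4.20 and -3.88, Acsm5 at 3.75 and 3.80, Alb at -3.17 and -3.65, Agtrap at -4.52 and 0.04, Ephx2 at -3.76 and -0.11, Nppa at -1.28 and 0.18, and Sgk1 at 1.55 and 0.11.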

How the data were processed

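Whole-brain RNA was reverse transcribed with an oligo-dT T7 primer, labelled with Cy3 and hybridised, per the labels' protocols. The authors deposited scanner files of Agilent Feature Extraction 10.5.1.1 that hold background-subtracted, spatially detrended intensity values per spot, per the file headers, and those intensities were used. The deposited table of processed values held the same number as the scanner file at all 44254 spots of each array, so it gave no separate alternative. From there, control spots and outlier spots were left out, log2 intensity less the 75th percentile of the array was taken, and spots of a probe were averaged. A probe was kept where it was well above background on all 3 arrays of at least 1 group (24284 of 30367), and the brightest kept probe stood for a gene. Symbols came from RefSeq by accession (17679 probes), symbol (2509) or older symbol (697); 9482 probes kept the file's name. One limma 3.58.1 fit (R 4.3.3) over the 18 arrays with a mean per group gave 12 residual degrees of freedom; p-values are two-sided with Benjamini-Hochberg adjustment over all genes, and measure the spread between the arrays of a group. The number of arrays limits the precision. The fit was tested on simulated data. Named genes were taken among established symbols. They were the 15 largest changes each way above background on all 6 arrays whose groups did not overlap, and up to 6 bounds each way. Up to 4 called members of each of 48 lists, all pressure-list members and 8 interaction genes each way were added. So were genes whose probes agreed or disagreed. Further list members are given as examples after their values were seen. The members and lists were chosen with earlier results of these data known. Alternatives covered scaling, background, the dim-probe filter, the probe rule, the samples fitted, slide, replicate number, outlier spots, array weights and leaving out arrays. Locations of probes in exons or untranslated regions were not analysed here, and values of some genes are not reported here.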

Additional observations from a re-analysis of the deposited data

Results flagged for a closer look

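The difference between SHR-labelled and WKY-labelled arrays was of another size at 6 than at 3 weeks for 8416 genes by the limma interaction test, under the SHR label, and the genes with the smallest adjusted p are given as the 6-week difference less the 3-week difference (log2). Higher at 6 weeks were Vegfb (9.43), Zfp597 (2.49), Zfp296 (2.40), Serhl2 (1.79), Zap70 (1.57), Gpatch11 (1.30), Car2, a carbonic anhydrase of oligodendrocytes (1.20), and Trappc6a (1.01). Lower were Hba-a3 (-6.27), Agtrap (-4.69), Ephx2 (-4.03), Haghl (-1.94), Myoc, the gene of myocilin (-1.88), Cort (-1.51), Tnfaip6, a hyaluronan-binding protein (-1.35), and Zfp14 (-0.979). The other Zfp14 probe rose at 6 weeks (1.11) and stood at -0.10 under the SHR and 1.12 under the SHRSP label at 3 weeks, so the direction depends on the probe.

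The differences between ages rest on which 3-week label is used. Against the arrays labelled SHRSP at 3 weeks the same differences were -0.14 for Vegfb, -0.29 for Zfp597, 0.10 for Zfp296, -0.27 for Serhl2, -0.10 for Zap70, 0.11 for Gpatch11, 0.13 for Car2 and -0.26 for Trappc6a. They were 1.56 for Hba-a3, -0.63 for Agtrap, -0.11 for Ephx2, -0.11 for Haghl, -0.33 for Myoc, -0.50 for Cort, 0.45 for Tnfaip6 and -0.05 for Zfp14. Of the 16 genes, 8 were not called under that label and 7 had the opposite sign.

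For Vegfb, Gpatch11, Serhl2, Car2 and Tnfaip6 the 6-week difference itself was not called (-0.10, 0.08, -0.09, -0.11 and 0.08), and for Myoc it was -0.48. Car2 stood at -1.31 under the SHR and -0.24 under the SHRSP label at 3 weeks, and Serhl2 at -1.88 and 0.18. Of the SHR-labelled arrays at 6 weeks, 2 of 3 were above background for Ephx2 and 1 of 3 for Hba-a3; none was for Vegfb under the SHR label at 3 weeks.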

How the results depend on the processing

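Of 333 named genes, quantile normalization left 311 on the same side of the threshold with the same sign, median scaling 299, normexp 301, the fit of both groups alone 304 and the random slide block 289. Quantile normalization gave 153 genes 2-fold lower; median scaling gave 6064 lower and 3 renin-angiotensin members higher. Normexp gave 309 genes 2-fold higher and 37 lower. The random slide block (consensus correlation 0.27) gave 5364 genes called, 1779 of them lower, 5289 in the comparison with 3 weeks, 4751 between SHR and SHRSP labels, 8 cholesterol genes lower and 3 renin-angiotensin members higher. The fit of both groups alone also gave 3 of the latter. An alternative chosen after seeing the data, genes within 2-fold between slides, left 342 genes 2-fold higher. A fixed slide block could not be fitted. The replicate block gave 5133 genes higher and 3257 lower. Deviations from the group mean correlated by -0.03, 0.02 and 0.02 between same-numbered arrays, and by -0.07 to 0.05 between the others. These values showed no pairing by number.

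Averaging all probes of a gene turned Colq (-0.36), Ddah1 (0.22), Nr3c2 (-0.15), Rps19 (-0.00065), Spock2 (1.29), Zbtb20 (1.31) and Zfp14 (0.035, and 0.12 less 3 weeks), and normexp turned Thop1 (0.15). Ace was not called by the mean of its probes, nor Aanat, Adra2c, Adrb3, Crhr1, Maob, Npr2, Or12j3 or Plet1 with the random slide block. Leaving out each array in turn gave 7001 to 7948 genes called, 4539 to 4786 higher, 2462 to 3179 lower, 663 to 728 and 91 to 121 at 2-fold, 7183 to 9401 in the comparison with 3 weeks and 7205 to 8452 between SHR and SHRSP labels. It gave 13 to 16 microglial, 12 to 15 glucocorticoid-induced and 12 to 13 hypertension candidate genes higher, 10 to 12 myelin and 9 to 13 cholesterol genes lower, and 3 to 5 renin-angiotensin members higher, with 3 after leaving out WKY array 2. Where a setting moved a value the cause was not tested. Signal over background limits the 158 raised and 27 lowered 2-fold genes not well above background on all 6 arrays.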

Other observations

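Among heat shock genes, which protect proteins under stress, 7 of 19 rose and 2 fell (median 0.07). This and the counts below stand beside 25.0% of all genes called higher and 16.4% lower. Hspa1b, the inducible HSP70, was at -2.93, -2.43 and -2.67 on the WKY-labelled arrays and at -0.56, -0.59 and -1.05 on the SHR-labelled arrays, 1.94 ± 0.14 higher (limma adjusted p = 2.4e-07). It differed by -0.11 and -0.12 at 3 weeks and by -0.37 on the SHRSP-labelled arrays at 6 weeks, so the rise was seen on the SHR-labelled arrays of slide 4. Its co-chaperones Dnajb1 (0.40) and Bag3 (0.34) rose less, and Hspa8 (-0.09) and Hsp90aa1 (0.05) were not called. Of 24 immediate early genes, induced within minutes of cell activity, 8 fell and 4 rose (median 0.03): Nr4a1 (-0.67), Ier2 (-0.52), Dusp1 (-0.52) and Fos (-0.38) fell, and Fosb (0.62, slide difference 0.40) rose. Of 19 clock genes 6 rose and 3 fell (median 0.01), with Per2 (0.84), Cry1 (0.48) and Per3 (0.50, slide difference 0.51) higher and Nr1d1 (-0.26) and Bmal1 (-0.17) lower; other probes of Per3 (0.04 and -0.11) and Bmal1 (-0.03) were not called. The labels do not give the hour of tissue collection.

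Of 58 cytosolic ribosomal protein genes 16 fell (27.6%) and 2 rose (3.45%), each by little (median -0.10). With the slide as a random block 3 fell, where 8.40% of all genes did. Of 31 cell division genes 4 rose and 8 fell, and the 2-fold changes of Mcm7 (1.92) and Ncaph (-2.14) stood apart from the other replicative helicase genes Mcm2 (-0.03), Mcm3 (0.15), Mcm4 (0.06) and Mcm5 (0.23), none of them called. Of 44 glutathione and antioxidant genes 9 rose and 12 fell (median 0.00), with Prdx1 (-0.43), Gsta1 (-0.42) and Nqo1 (-0.27) lower and Gstt3 (0.53) and Hmox1 (0.37) higher.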
